A study of Mus musculus with 10 samples.

Results

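The 8 genes Mbp, Sox10, S100b, Mag, Prx, Ncmap, Pmp2 and Pmp22, which mark Schwann cells and their myelin, were followed in mouse skin. They were chosen by name and were all found among the 55487 gene identifiers of the deposited tables. All 8 were among the 17321 genes with enough counts to be tested. The mRNA of skin from 5 wild type mice (WT) and 5 mice whose genotype is given as Hamp1-KI ker (KI) was sequenced, 1 library per mouse. The series concerns overexpression of hepcidin, the iron-regulating peptide encoded by Hamp, in the skin. The word "ker" is not spelled out, and the sources used here give neither the promoter that drives the allele nor the strain, age and sex of the mice. Library titles begin with EAS37 (WT 1, WT 2, WT 3, KI 1 and KI 2) or EAS42 (WT 4, WT 5, KI 3, KI 4 and KI 5), a prefix that the labels leave unexplained. The comparison asked how the nerve sheath genes differed between the genotypes.

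Schwann cells are the glia of peripheral nerves. Myelinating Schwann cells wrap an axon in many turns of compacted membrane, which speeds conduction, and non-myelinating Schwann cells enfold thin sensory axons, many of which end in the skin. Sox10 is the transcription factor that defines the lineage and, together with Egr2, switches on myelin genes. Mbp, Pmp22 and Pmp2 belong to compact myelin, Mag to the inner membrane facing the axon, and Prx to the outer membrane facing the basal lamina. Skin RNA mixes many cell types, so fewer cells of a type and less RNA per cell cannot be told apart in these libraries.

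RefSeq start sites (GRCm38.p6) were available for 5 of the 8 genes, as 11 windows of 250 bases upstream of a start. The promoters shown are of Mag and Pmp22, which moved together in the data below, and of Ncmap, which moved least with the others. Capitals mark ACAAAG, a core of sites bound by Sox proteins, or GGGCGG, the GC box bound by Sp factors, either as written or as the reverse complement (CTTTGT and CCGCCC).
Mag, chr7:30914923-30915172, minus strand: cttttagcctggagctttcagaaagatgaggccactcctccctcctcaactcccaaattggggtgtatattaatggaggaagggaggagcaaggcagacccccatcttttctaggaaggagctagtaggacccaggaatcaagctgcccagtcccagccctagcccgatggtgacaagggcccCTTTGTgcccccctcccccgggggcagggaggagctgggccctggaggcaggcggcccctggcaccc
Pmp22, chr11:63128732-63128981, plus strand: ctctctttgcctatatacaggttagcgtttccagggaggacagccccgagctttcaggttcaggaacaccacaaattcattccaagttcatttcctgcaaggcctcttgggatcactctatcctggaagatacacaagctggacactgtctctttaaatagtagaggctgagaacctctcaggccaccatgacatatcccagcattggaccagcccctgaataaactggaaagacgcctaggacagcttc
Ncmap, chr4:135398228-135398477, minus strand: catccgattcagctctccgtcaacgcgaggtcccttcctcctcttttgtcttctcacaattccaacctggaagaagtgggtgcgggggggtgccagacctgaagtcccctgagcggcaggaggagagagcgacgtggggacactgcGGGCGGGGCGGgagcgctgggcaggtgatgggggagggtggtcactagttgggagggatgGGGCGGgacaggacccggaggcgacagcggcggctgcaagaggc
The Mag window held ACAAAG 67 bases before its start, and a Mag window at another start, which overlaps it, held the same letters at 126 bases. This motif was thus found at 1 place, in 2 of the 11 windows, and in 16.5% of all 32851 windows of the same length. The Ncmap window held GGGCGG 3 times, at 104, 99 and 44 bases before the start. The first 2 of these overlap. That motif was found in 3 of the 11 windows, the other two at further Pmp22 starts, and in 32.7% of all windows. ACAATG (10.7% of all windows), TATAAA (12.4%) and GCGTGGGNG (1.65%), searched on both strands, were in none of the 11 windows. A match is a description of letters and not a site in use.

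The genes lie on 7 chromosomes of GRCm38, and all encode proteins. Sox10 (ENSMUSG00000033006) spans chromosome 15 from 79154908 to 79165240 on the minus strand. S100b (ENSMUSG00000033208) spans chromosome 10 from 76253853 to 76261159 on the plus strand. Mbp (ENSMUSG00000041607) spans chromosome 18 from 82475146 to 82585637 on the plus strand. Pmp22 (ENSMUSG00000018217) spans chromosome 11 from 63128982 to 63159547 on the plus strand, and Pmp2 (ENSMUSG00000052468) chromosome 3 from 10179851 to 10183929 on the minus strand. Ncmap (ENSMUSG00000043924) spans chromosome 4 from 135369576 to 135398227 on the minus strand. Prx (ENSMUSG00000053198) and Mag (ENSMUSG00000036634) share chromosome 7, Prx from 27499324 to 27520214 on the plus strand and Mag from 30899176 to 30914873 on the minus strand. Mag neighbours the hepcidin genes, 7499 bases from Hamp2 and 27495 bases from Hamp. The place of insertion of the KI allele was not found in the labels.

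The libraries held 18.96 to 26.43 M counts, and WT 3 and WT 4 were the deepest. Hamp had 2.46 ± 0.615 CPM (counts per 1e6) in WT libraries against 109 ± 34.3 CPM in those of KI mice (SD, n = 5 each), in the direction of the genotype labels. Keratinocyte markers summed to 20903 to 24874 CPM in WT and 21038 to 33069 CPM in KI libraries, as the tissue label skin requires. Summed markers of skeletal muscle, which lies beneath the dermis, ranged from 32024 to 56097 CPM in WT and from 3354 to 34745 CPM in KI libraries. The closest pair of libraries, WT 1 and WT 3, differed by a chi-square of 29.5 per gene, far more than counting noise, so each was kept as 1 replicate. The labels describe 5 mice per genotype and do not say how tissue pieces were taken, so p-values measure the spread between these libraries.

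Lineage genes were lower in KI skin. Sox10, the lineage factor, was measured at 19, 15.7, 20.3, 30.5 and 22.8 CPM in WT 1 to WT 5. In KI 1 to KI 5 it was measured at 6.76, 7.42, 13.8, 10.8 and 12.9 CPM. Every KI library lay below every WT library, with the narrowest gap between KI 3 and WT 2. Mean Sox10 fell from 21.7 ± 5.58 to 10.4 ± 3.18 CPM (SD, n = 5 each), a log2 fold change of -1.06 ± 0.23 (SE; adjusted p = 0.00788 in edgeR). S100b, a calcium-binding protein abundant in Schwann cells and also made by melanocytes and fat cells, was measured at 6.31, 9.58, 8.75, 11.6 and 7.93 CPM in WT 1 to WT 5. KI 1 to KI 5 held 3.48, 2.38, 4.8, 4.02 and 5.73 CPM of S100b, and again the groups did not overlap. S100b fell from 8.84 ± 1.98 to 4.08 ± 1.27 CPM (log2 fold change -1.12 ± 0.24; adjusted p = 0.00691 in edgeR). S100b overlaps Dip2a on the opposite strand, and Dip2a had 943.6 counts per library on average against 146.6 for S100b. No source used here states the strand setting of the counting, so the split of reads between both genes is uncertain. Dip2a itself had 40.0 ± 2.34 CPM in WT libraries against 44.7 ± 2.82 CPM in KI libraries (edgeR adjusted p = 0.0967).

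Compact myelin genes were lower as well. Mbp, which holds the cytoplasmic faces of the myelin membrane together, was measured at 148, 169, 305, 471 and 252 CPM in WT 1 to WT 5. Its KI libraries held 57.5, 56.7, 121, 102 and 122 CPM, all below the lowest WT library. Mbp was 2.92-fold lower in KI skin, with a log2 fold change of -1.55 ± 0.36 (SE; adjusted p = 0.0107 in edgeR). WT libraries spread over a wide range, with a coefficient of variation of 48.2%. Pmp22, a tetraspan protein whose gene dosage underlies inherited neuropathies in humans, was measured at 261, 248, 401, 587 and 349 CPM in WT 1 to WT 5. KI 1 to KI 5 held 87.6, 93.2, 195, 155 and 188 CPM of Pmp22, without overlap. Pmp22 fell from 369 ± 137 to 144 ± 51.1 CPM, a log2 fold change of -1.36 ± 0.30 (SE; adjusted p = 0.00919 in edgeR). Pmp22 is also made by fibroblasts and epithelial cells, so its skin level is not that of nerves alone.

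Pmp2, a fatty acid binding protein of compact myelin (also called Fabp8), had the largest fold of the 8 genes. WT 1 to WT 5 held 2.52, 1.69, 6.54, 11.7 and 4.13 CPM, from 57, 32, 168, 309 and 90 counts. KI 1 to KI 5 held 0.454, 0.298, 1.22, 0.889 and 0.659 CPM, from 9, 6, 28, 21 and 13 counts. The groups did not overlap, although KI 3 (1.22 CPM) came close to WT 2 (1.69 CPM). Pmp2 was lower by a log2 fold change of -2.91 ± 0.57 (SE; adjusted p = 0.00508 in edgeR). The KI values rest on few counts, and with a minimum count of 50 Pmp2 was not tested. Of its relatives on chromosome 3, Fabp4, the fatty acid binding protein of fat cells and vessels, lies 20159 bases from Pmp2 and fell from 498 ± 67.2 to 263 ± 34.4 CPM, a log2 fold change of -0.92 ± 0.12. Fabp5, the epidermal form, lies 163244 bases away and rose from 380.0 ± 71.7 to 1138 ± 315 CPM, a log2 fold change of 1.58 ± 0.21 (SE, n = 5 each; adjusted p = 7.54e-04 in edgeR). Gm37389, annotated over Pmp2 on the same strand, had 0.4 counts per library on average against 73.3 for Pmp2.

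Genes of the membranes around compact myelin divided. Mag, a sialic acid binding adhesion protein of the inner, axon-facing membrane, was measured at 3.4, 5.4, 8.09, 13.4 and 7.93 CPM in WT 1 to WT 5. KI 1 to KI 5 held 1.72, 0.857, 2.79, 2.24 and 3.6 CPM of Mag. The groups overlapped at a single point, KI 5 (3.6 CPM) above WT 1 (3.4 CPM), and did not overlap in TPM. Mag fell by 1.77 ± 0.42 on the log2 scale (edgeR adjusted p = 0.0107). Prx, periaxin, links the outer Schwann membrane to the dystroglycan complex. It was measured at 37.2, 53.0, 84.4, 139 and 73.9 CPM in WT 1 to WT 5 and at 14.2, 11.9, 34.7, 26.5 and 34.0 CPM in KI 1 to KI 5. No KI library reached the lowest WT library, and Prx fell from 77.6 ± 39.1 to 24.3 ± 10.8 CPM (log2 fold change -1.68 ± 0.41; adjusted p = 0.0138 in edgeR).

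Ncmap, a small myelin-associated membrane protein of peripheral nerve, was the exception. WT 1 to WT 5 held 8.78, 13.1, 12.1, 20.7 and 13.7 CPM, and KI 1 to KI 5 held 11.5, 10.3, 9.94, 11.0 and 9.27 CPM. The groups overlapped, and all KI libraries stood above WT 1. Its log2 fold change of -0.39 ± 0.19 (SE) did not pass (edgeR adjusted p = 0.139), but without WT 1 it did (-0.52, edgeR adjusted p = 0.0451). Without WT 4 it was smaller (-0.2) and did not pass, and these are the ends of the range over left-out libraries. Ncmap also varied least among KI libraries, with a coefficient of variation of 8.42%, against 30.7% to 51.7% for the other 7 genes.

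**Figure D1:**
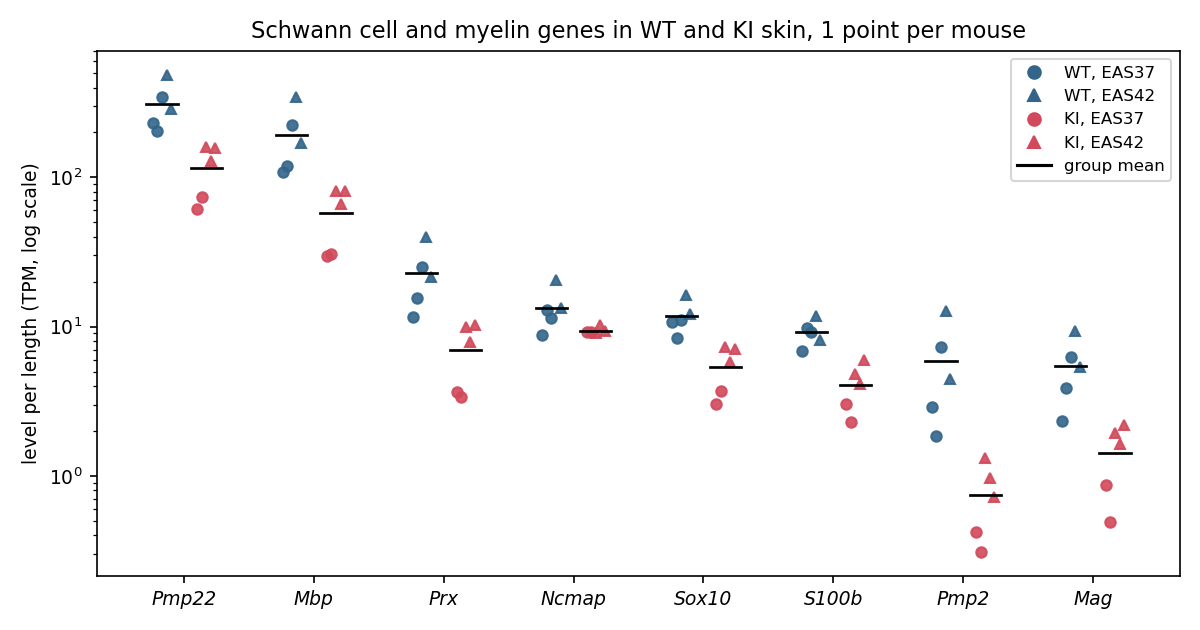
Level per length (TPM, log axis) of each gene in each of the 10 libraries, with group means as black lines, circles for EAS37 and triangles for EAS42 titles. KI points lie below all WT points for every gene except Ncmap, and Pmp22 and Mbp are the highest genes in both genotypes.

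In all, 7 of the 8 genes were lower in KI skin and none was higher. Among all tested genes 15.3% were called lower (2652 of 17321) and 15.6% higher (2699). The median log2 fold change was -1.45 over the 8 genes and -0.01 over all tested genes. In CPM, 6 of the 8 genes had every KI library below every WT library, against 9.65% of all tested genes (1671). With deposited TPM, called genes shifted towards lower calls (1805 higher and 2665 lower), and 7 of the 8 genes remained lower. Leaving out any 1 library left 7 or 8 of the 8 genes called lower, with 1799 to 2812 of all tested genes. Without both of the deepest libraries, WT 3 and WT 4, 3 were called (Sox10, S100b and Pmp2). Of all 17828 genes tested in that fit, 1255 were called lower. Mbp (-1.04, edgeR adjusted p = 0.0583), Mag (-1.32, 0.0649), Prx (-1.17, 0.0805) and Pmp22 (-0.99, 0.0542) then kept their sign without passing.

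Levels between genes were compared per length, in deposited TPM (transcripts per 1e6). Pmp22 (311 TPM) and Mbp (193 TPM) led in WT skin, with ranges that overlapped and were clear of the next gene, Prx (22.7 TPM). Within every library of both genotypes Pmp22 stood above Mbp. Prx, Ncmap (13.4 TPM), Sox10 (11.7 TPM) and S100b (9.18 TPM) followed, each neighbour overlapping the next across libraries. Pmp2 (5.84 TPM) and Mag (5.43 TPM) were lowest. In KI skin Pmp22 (116 TPM) and Mbp (57.7 TPM) still led. Ncmap moved ahead of Prx to the third place (9.4 against 7.01 TPM) and Mag ahead of Pmp2 (1.42 against 0.746 TPM). In both changes of order the ranges of the neighbouring genes overlapped across libraries. Within libraries, Mag stood above Pmp2 in every KI library but among WT libraries in WT 2 and WT 5 only. Ncmap stood above Prx in KI 1, KI 2 and KI 4 and below it in KI 3 and KI 5.

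The fall was present within each title prefix. Among EAS37 libraries (3 WT, 2 KI) 7 of the 8 genes were called lower, with 18.4% of all tested genes called lower. Among EAS42 libraries (2 WT, 3 KI) all 8 were called lower, with 7.13% of tested genes called lower. Within either prefix the groups did not overlap for any of the genes except Ncmap in EAS37. Mbp, for example, averaged 207 CPM in WT and 57.1 CPM in KI libraries of EAS37, and 361 and 115 CPM in those of EAS42. Groups as small as 3 against 2 libraries separate easily, and the share of all tested genes without overlap within a prefix was not counted. Sox10 had log2 fold changes of -1.37 ± 0.19 in EAS37 and -1.09 ± 0.17 in EAS42 (SE; adjusted p = 5.92e-04 and 0.00456 in edgeR). The EAS42 calls leaned on few libraries. Called lower were 2 of the 8 without KI 4, with 468 of all 17528 tested genes. Without KI 3 the counts were 5 of the 8 and 817 of 17533, against 1235 of 17321 with all libraries. Without WT 4 the median log2 fold change of the 8 genes was -1.04, against -1.52 with all libraries. In EAS37, Pmp2 lost its call without KI 1 (edgeR adjusted p = 0.0582) or KI 2 (0.0839), and Mag without KI 2 (0.0627). The log2 fold changes were then -3.63 and -2.98 for Pmp2 and -1.71 for Mag. Leaving out WT 4 in EAS42, or KI 1 or KI 2 in EAS37, leaves a group with 1 library, which is assumed to vary like the other groups.

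Ncmap was called within EAS42 and not within EAS37. In EAS37 it averaged 11.3 CPM in WT and 10.9 CPM in KI libraries, a log2 fold change of -0.05 ± 0.22 (edgeR adjusted p = 0.873). In EAS42 it averaged 17.2 and 10.1 CPM, a log2 fold change of -0.77 ± 0.21 (edgeR adjusted p = 0.0363). That call was lost without KI 3 (edgeR adjusted p = 0.0825), KI 4 (0.0785) or KI 5 (0.084). Without WT 4, which leaves 1 WT library in EAS42, the log2 fold change was -0.44. The difference of the effects, EAS42 minus EAS37, was -0.72 ± 0.30 and did not pass (edgeR adjusted p = 0.25). For the other 7 genes the difference lay between 0.18 and 0.47, and none passed. Over all tested genes, the KI effect differed between prefixes in 0.866% (150).

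**Figure D2:**
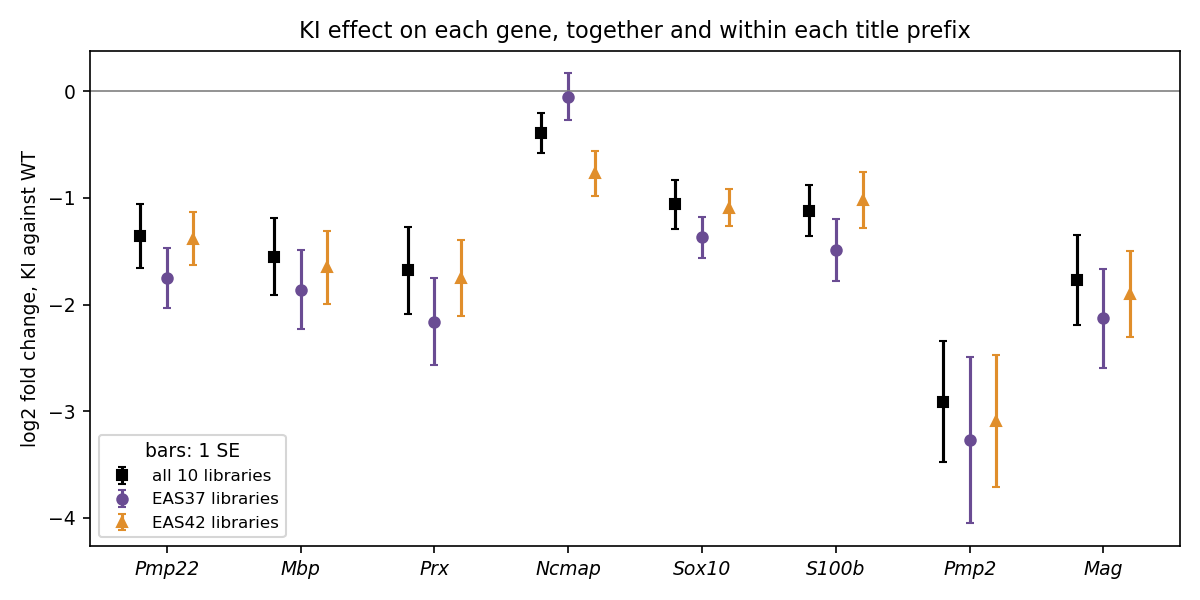
Log2 fold change of KI against WT for each gene, with all 10 libraries (squares), within EAS37 (circles) and within EAS42 (triangles), bars showing 1 SE. Values within a prefix come from a model of all 10 libraries with a shared spread. All values are below 0, from -0.05 for Ncmap in EAS37 to -3.27 for Pmp2 in EAS37.

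Relative to Sox10, Pmp2 was lower still in KI skin, and the other genes varied. In each library the TPM of a gene was divided by that of Sox10, which myelinating and non-myelinating Schwann cells share but melanocytes also make. Pmp2 had 0.27, 0.219, 0.663, 0.779 and 0.371 TPM per TPM of Sox10 in WT 1 to WT 5. In KI 1 to KI 5 it had 0.138, 0.0831, 0.181, 0.167 and 0.102, below every WT library. The log2 ratio of Pmp2 to Sox10 differed by -1.67 between genotypes (exact two-sided permutation p = 0.00794, the smallest that 5 against 5 allow). This stayed between -1.89 and -1.43 when any 1 library was left out.

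The other ratios were less clear-cut. Mbp stood at 10.1 to 21.1 times the Sox10 level in WT and 8.27 to 11.5 times in KI libraries, a log2 difference of -0.58 (exact permutation p = 0.0317). Those groups overlapped, though not within either prefix. For Pmp22 the log2 difference was -0.29 (exact permutation p = 0.0317) and for Mag -0.81 (exact permutation p = 0.0397), both with overlap. Ncmap went the other way, from 0.822 to 1.54 times Sox10 in WT to 1.25 to 3.01 times in KI libraries, a log2 difference of 0.71 (exact permutation p = 0.0476). Prx (-0.55, exact permutation p = 0.0556) and S100b (-0.06, exact permutation p = 0.754) did not pass. These 7 p-values are unadjusted. Of the 5 under 0.05, 3 were under it in CPM, and between 1 and 5 of the 7 ratios when 1 library was left out; Pmp2 was so each time.

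**Figure D3:**
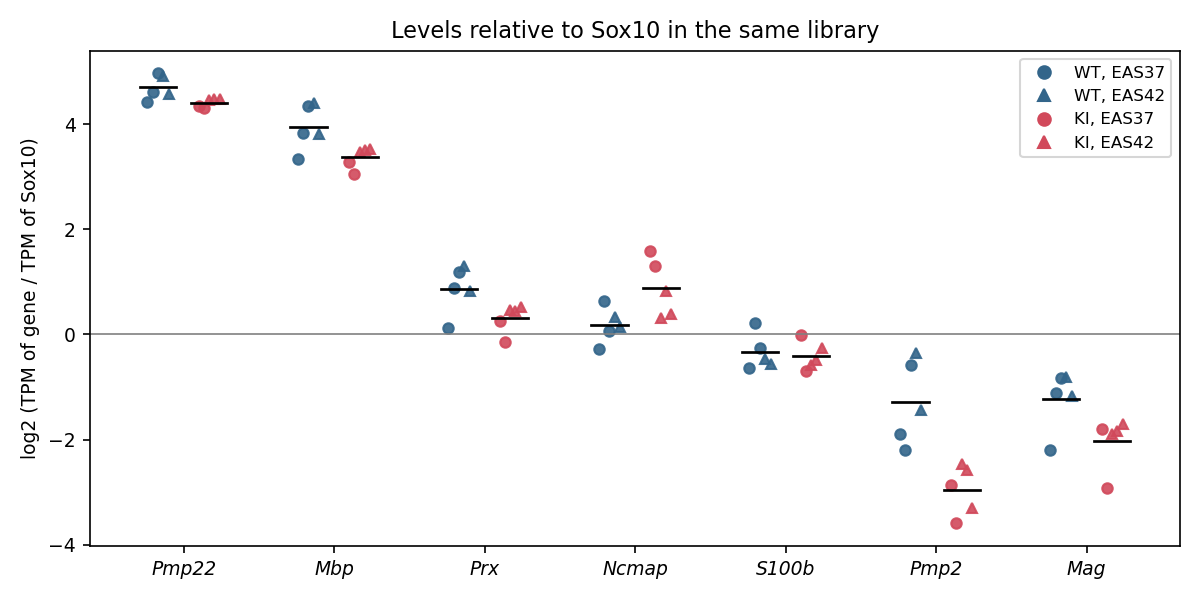
Log2 ratio of each gene's TPM to that of Sox10 in the same library, 1 point per mouse, with group means as black lines. Pmp2 separates the genotypes without overlap (difference -1.67), S100b hardly moves (-0.06), and Ncmap lies higher in KI libraries (0.71).

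The mix of Mbp transcripts shifted as well. The deposited tables give, for each gene and library, the mean length of its transcripts weighted by their estimated abundance. Mbp has 16 annotated transcripts in the tables, of 354 to 4797 bases, and the gene has a longer unit, Golli, that neurons and immune cells also use. Its mean length was 2117, 2079, 2044, 2007 and 2157 bases in WT 1 to WT 5, and 2391, 2521, 2168, 2279 and 2216 bases in KI 1 to KI 5. Every KI library was longer than every WT library, also within each prefix, and the means were 2081 ± 58.9 and 2315 ± 142 bases (SD, n = 5 each). The difference of 234 bases had an exact two-sided permutation p of 0.00794, and it was 183 to 271 bases when 1 library was left out. Among 13575 genes with more than 1 length, 0.759% (103) had every KI library longer than every WT library. Fewer Mbp counts in KI libraries make the estimated mix less precise there, and its part in the difference was not tested. The longer mean makes the fall of Mbp larger per length (3.35-fold in TPM) than in counts (2.92-fold).

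Of the other genes, 5 had a mean length that could vary, and S100b and Pmp2 had 1 transcript each, of 1484 and 1408 bases. Prx went from 4815 ± 41.7 to 4725 ± 69.2 bases (exact permutation p = 0.0476) with overlap. Mag, at 2102 ± 104 and 2275 ± 198 bases, did not pass (exact permutation p = 0.127), and neither did Ncmap (0.278), Pmp22 (0.222) or Sox10 (1). The 6 p-values are unadjusted, and the lengths were examined after other results of these data were known.

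**Figure D4:**
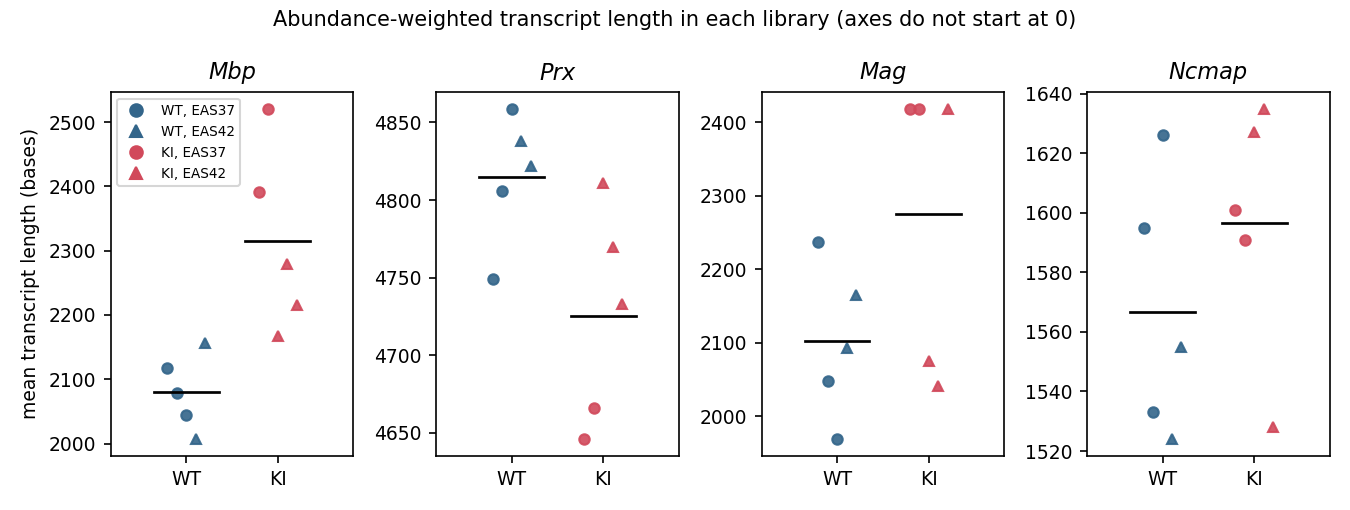
Mean transcript length in bases of Mbp, Prx, Mag and Ncmap in each library, with group means as black lines; the axes do not start at 0. For Mbp all KI points (2168 to 2521 bases) lie above all WT points (2007 to 2157 bases), and for the other 3 genes the groups overlap.

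Within each genotype the genes rose and fell together from mouse to mouse. WT 4 was the highest WT library for all 8 genes, and the lowest was WT 1 for 5 genes and WT 2 for 3. Among KI libraries KI 2 was lowest for 5 genes. KI 1 and KI 2, the EAS37 animals, were below all other KI libraries for every gene but Ncmap. After subtracting each genotype's mean, Mbp and Prx correlated at 0.99 over the 10 libraries, the highest of 28 pairs, and Sox10 and Ncmap at 0.27, the lowest. Against the mean of the other 7, the correlation was 0.99 for Prx, 0.98 for Mbp, 0.95 for Pmp22, 0.94 for Mag, 0.87 for Pmp2 and 0.86 for Sox10. It was lower for S100b (0.80) and lowest for Ncmap (0.47). These are descriptions, since all genes share the same libraries, title prefixes, depth and tissue make-up. The means of the prefixes were not subtracted, so the correlations include the difference between EAS37 and EAS42.

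Among the tested genes most like the 8 in this mouse-to-mouse pattern, with a mean of at least 1 CPM, were Fam178b (0.99), Gatm (0.98), Mal (0.98), Cnp (0.97) and Nfasc (0.97). Mal, a lipid raft protein of myelin, fell by 1.58 ± 0.41 (edgeR adjusted p = 0.0171). Gatm, which makes the creatine precursor guanidinoacetate, fell by 1.54 ± 0.34 on the log2 scale (edgeR adjusted p = 0.00941). Cnp, a phosphodiesterase of non-compact myelin, fell by 1.18 ± 0.24 (edgeR adjusted p = 0.00682), and Fam178b by 1.12 ± 0.38 (edgeR adjusted p = 0.0433). Nfasc, the neurofascin of nodes and paranodes, had a log2 fold change of -0.63 ± 0.35 and did not pass (edgeR adjusted p = 0.196).

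Beyond the 8 genes, the wider myelin membrane list moved with them. Of its 13 tested members 11 fell and none rose, with a median log2 fold change of -1.40. Cadm4, an adhesion protein that binds axonal partners, fell from 26.5 ± 10.7 to 9.83 ± 2.26 CPM (edgeR adjusted p = 0.00406). Dusp15, a phosphatase gene controlled by Sox10, fell from 10.6 ± 3.94 to 3.17 ± 1.89 CPM (edgeR adjusted p = 0.0119). Gldn, gliomedin, which gathers sodium channels at nodes, fell from 10.8 ± 3.71 to 4.62 ± 1.7 CPM (edgeR adjusted p = 0.0126). The members that did not pass were Gjb1 (-0.54) and Nfasc.

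Enzymes of myelin lipid synthesis moved both ways. Of 10 tested 4 rose and 2 fell, with a median of 0.31. Ugt8a, which makes the galactosylceramide of myelin, fell from 13.8 ± 8.93 to 3.85 ± 1.77 CPM (log2 fold change -1.84 ± 0.47; adjusted p = 0.0166 in edgeR). Fa2h, which hydroxylates the fatty acids of myelin sphingolipids and is also active in skin, rose from 309 ± 61.0 to 568 ± 239 CPM (log2 fold change 0.88 ± 0.25; adjusted p = 0.0246 in edgeR). Of the cholesterol enzymes, which most cell types of skin make, Dhcr7 rose from 63.2 ± 12.9 to 109 ± 10.8 CPM and Fdft1 from 78.3 ± 16.0 to 114 ± 16.1 CPM (edgeR adjusted p = 0.00238 and 0.0189).

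Transcription regulators of myelination did not move as a group, with 4 higher, 4 lower and 8 not passing of 16 tested (median -0.24). Egr2, the factor that works with Sox10 on myelin genes, rose from 60.6 ± 25.6 to 178 ± 36.1 CPM (log2 fold change 1.56 ± 0.27; adjusted p = 0.00322 in edgeR). Egr2 is also made by keratinocytes, hair follicles and immune cells. Pou3f1, which acts before Egr2 in Schwann cells and is also an epidermal factor, rose from 48.0 ± 12 to 80.8 ± 6.21 CPM (edgeR adjusted p = 0.00782). Tead1, which binds the co-activators Yap1 and Wwtr1, fell by 0.54 ± 0.11 on the log2 scale (edgeR adjusted p = 0.00595). Wwtr1 fell by 0.40 ± 0.09 on the log2 scale (edgeR adjusted p = 0.00758).

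Signals between axon and Schwann cell mostly fell, in 10 of 16 tested, with 1 higher and a median of -0.55. The 1 that rose was Nrg1, neuregulin 1, a growth factor whose axonal form sets myelin thickness. Which cells of the skin made the Nrg1 RNA was not tested, and only 3 of 15 neuron and axon markers had enough counts to be tested. Nrg1 went from 0.455 ± 0.435 CPM in WT (48 counts in all 5 libraries) to 10.4 ± 3.22 CPM in KI libraries, without overlap. Its log2 fold change was 4.56 ± 0.50 (edgeR adjusted p = 3.94e-04). Its glial receptor genes Erbb2 (113 ± 3.36 and 116 ± 8.85 CPM) and Erbb3 (143 ± 25.7 and 173 ± 21.3 CPM), which keratinocytes also express, did not pass. Dhh, desert hedgehog, through which Schwann cells organise the nerve sheath, fell from 8.72 ± 2.33 to 3.36 ± 0.894 CPM (edgeR adjusted p = 0.00221). Gfra3, the receptor for artemin, fell from 3.24 ± 0.404 to 1.16 ± 0.356 CPM (edgeR adjusted p = 0.00151). Lamc1, a laminin chain of basal laminae, fell by 0.66 ± 0.09 on the log2 scale (edgeR adjusted p = 0.00114).

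Genes of non-myelinating, precursor and repair Schwann cells fell in 8 of 14 tested, with 1 higher (median -0.95). Ncam1, an adhesion protein of non-myelinating Schwann cells, fell from 22.2 ± 3.41 to 10.9 ± 3.7 CPM (edgeR adjusted p = 0.00804). Gap43, a growth-associated protein of axons and repair Schwann cells, fell from 8.22 ± 3.49 to 2.76 ± 0.642 CPM (edgeR adjusted p = 0.00876), and Gdnf, a neurotrophic factor, from 8.21 ± 2.37 to 3.32 ± 1.23 CPM (edgeR adjusted p = 0.00764). Artn, artemin, a neurotrophic factor also made by keratinocytes, rose from 0.709 ± 0.168 to 2.69 ± 0.903 CPM (edgeR adjusted p = 0.00193). Genes of inherited demyelinating neuropathy outside the other lists changed in 2 of 11 tested (median -0.10). Arhgef10, a guanine nucleotide exchange factor, fell by 0.68 ± 0.09 on the log2 scale (edgeR adjusted p = 9.76e-04). Litaf, a late endosomal protein, rose by 0.42 ± 0.09 (edgeR adjusted p = 0.00811).

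**Figure D5:**
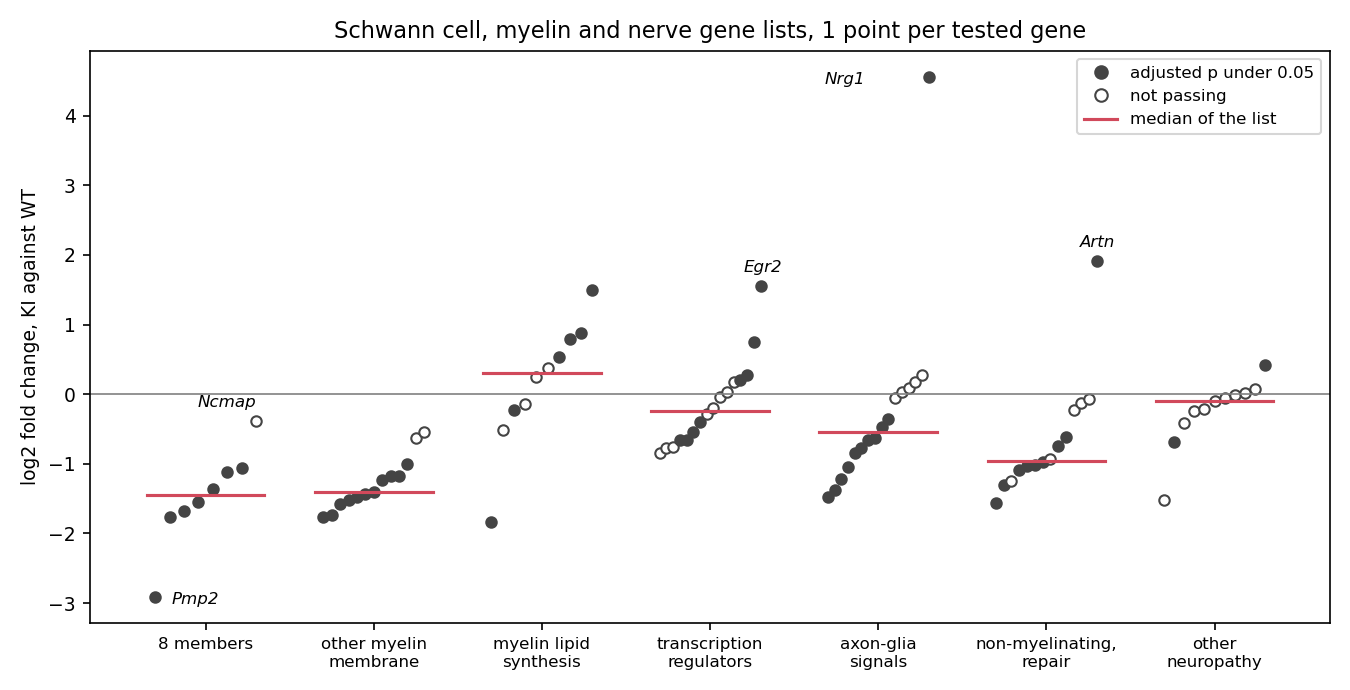
Log2 fold change of KI against WT for every tested gene of 7 lists, filled where the edgeR adjusted p is under 0.05, with the median of each list as a red line. The 8 genes (median -1.45) and the other myelin membrane genes (-1.40) lie mostly below 0, lipid synthesis (0.31) lies on both sides, and Nrg1 (4.56) stands highest.

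Markers of other cell types were read in the same libraries. Melanocytes share Sox10 and S100b, and their 10 markers summed to 71.0 to 128 CPM in WT and 28.1 to 68.8 CPM in KI libraries; of 8 tested, Mitf (-0.92) alone passed. With a term for each library's melanocyte level, 7 of the 8 genes were called lower, with 1632 of all 17321 tested genes. Without that term 2652 of all tested genes were called lower. The median log2 fold change of the 8 genes was -1.21 with the term and -1.45 without it. The summed melanocyte markers did not overlap between the genotypes, and the part of melanocytes in the fall was not tested beyond these values. Oligodendrocytes, the myelin cells of the brain, were nearly absent: Olig2 was at 0 in all libraries, the 6 markers summed to at most 3.11 CPM, and Hapln2 alone had enough counts to be tested. Of 15 neuron and axon markers 3 had enough counts to be tested. Uchl1, a deubiquitinase of neurons, fell from 2.92 ± 0.248 to 1.47 ± 0.295 CPM (edgeR adjusted p = 0.00435). Tubb3, a neuronal tubulin, rose from 3.12 ± 3.12 to 11.5 ± 4.52 CPM (edgeR adjusted p = 0.0249). The Tubb3 groups overlapped, with WT libraries up to 8.68 CPM and KI libraries from 6.59 CPM. Stmn2 did not pass (log2 fold change 0.20 ± 0.17, edgeR adjusted p = 0.393).

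Markers of fat, vessels and smooth muscle were lower in KI skin in larger shares than the 15.3% of all tested genes. Of 17 adipocyte markers 10 fell (summed 3184 to 3978 CPM in WT and 1334 to 2177 CPM in KI), of 14 endothelial markers 12 (361 to 487 and 217 to 319.5 CPM), and of 9 smooth muscle markers 7 (1335 to 2102 and 501 to 1080 CPM). Of 20 skeletal muscle markers 3 were called lower, a share close to that of all tested genes, but few calls did not mean a small fall. The median log2 fold change of these 20 was -1.31. It was -0.91 for adipocyte, -0.68 for endothelial and -1.10 for smooth muscle markers. Of 11 fibroblast markers 5 fell and 1 rose, and of 12 keratinocyte markers 3 fell and 2 rose. Of 3 tested Merkel cell markers 2 fell. None of the defining markers of these 7 cell types was at 0 in all libraries.

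With a term for each library's skeletal muscle level, none of the 8 genes was called, and 0.785% of all tested genes were called lower (136). The log2 fold changes of the 7 genes called without it then lay between -2.26 (Pmp2; adjusted p = 0.173 in edgeR) and -0.57 (S100b; adjusted p = 0.258 in edgeR), with the same sign. With the adipocyte level in the model none was called either, while the log2 fold changes of these 7 genes stayed between -2.18 (Pmp2) and -0.63 (Sox10), with Mag at -1.52, Mbp at -1.07 and S100b at -0.98. Adipocyte levels did not overlap between the genotypes, so that level and the genotype cannot be told apart. Skeletal muscle levels (mean log2 CPM) were 9.76 to 10.44 in WT libraries. KI 3 alone reached that range (9.83), and the other KI libraries had 6.54 to 9.25. The muscle level and the genotype were thus poorly separated too. The part of tissue make-up in the fall of the 8 genes was not tested beyond these values.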

How the data were processed

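The 10 libraries were made from skin RNA with a stranded mRNA kit, per the labels' protocols. The deposited tables have the columns of RSEM gene output, per the file headers: expected count, TPM, FPKM, and transcript and effective lengths in bases. Per the submitters' processing notes, FastQC, STAR 2.5.2b, Picard 2.8.1, featureCounts and DESeq2 1.14.1 were used with GRCm38; the notes give no roles. FPKM values the authors deposited were not used. The authors' expected counts, 10.4% to 12.16% of them not whole, were rounded. Names came from a table by gene identifier (55141 of 55487 matched; identifiers without a name held 0.0507% of counts and stayed in), and positions from GENCODE M21.

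Genes were tested in edgeR 4.0.16 (R 4.3.3) with TMM scaling, filterByExpr (minimum count 10) and the robust quasi-likelihood test, with Benjamini-Hochberg adjustment over all 17321 genes and a threshold of 0.05. CPM use TMM library sizes. Models within each prefix used all 10 libraries with a term per group and prefix. The difference of the KI effects between prefixes was an interaction. Ratios and lengths were tested by exact two-sided permutation in scipy 1.17.1. Alternatives used DESeq2 1.42.0, limma 3.58.1 (voom, and log2 of TPM plus 1 or 0.1), other scalings and filters, covariates and left-out libraries.

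The 8 genes and the gene lists were chosen with earlier results of these data known. Named were the 8 genes, up to 4 genes with the smallest p in each list, and the 6 genes most like the 8; some that this rule names are not reported here. Erbb2, Erbb3, Gjb1, Fa2h, Dip2a and the Fabp genes were named for their role or position, with their values known. Replicate numbers follow accession order and pair nothing. Total counts of 18.96 to 26.43 M per library bound the precision of the genes with few counts. No library stood apart from its group by Dixon's test at 0.71 in 27 groups of 5 values.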

Additional observations from a re-analysis of the deposited data

How the results depend on the processing

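Each of the 7 called genes kept its negative sign under all alternatives that were run, and each call held under 14 or 15 of 17 alternatives (of 16 for Pmp2), left-out single libraries aside; Ncmap kept its sign over all libraries but not within EAS37. The number of genes passing, 5351, became 2800 without WT 3 and WT 4 (chosen after seeing the data), 2488 with EAS42 alone, 3249 with the melanocyte level, 425 with the muscle level and 92 with the adipocyte level, and the number of the 8 called lower went from 7 to 3 without WT 3 and WT 4 and to 0 with the muscle or adipocyte level. With the adipocyte level the edgeR adjusted p of the 7 genes lay between 0.494 and 0.672. Leaving out 1 library gave 3821 to 5850 genes and 7 to 8 of the 8. Within EAS37 it gave 3686 to 6344 genes and 5 to 7 of the 8. Within EAS42 it gave 416 to 3280 genes and 0 to 8 of the 8, and without WT 3 and WT 4 the 2611 genes became 220 and the 8 became 3, with 1 WT library left, whose spread is taken from the other groups. The number of genes whose KI effect differed between prefixes was 150. It was 444 with no filter, 85 with a non-robust fit, 1087 with DESeq2 and 72 with limma-voom. With TPM plus 1 and plus 0.1 it was 76 and 83. Leaving out 1 library gave 12 to 304 where each group and prefix kept at least 2 libraries. The other omissions, and that of WT 3 and WT 4 together, left a group with 1 library. None of the 8 passed in any of these fits. Signs that turned were those of small values. Ncmap within EAS37 was 0.00 without WT 3 and WT 4 and -0.21 to 0.06 without 1 library. The prefix difference of the KI effect on Pmp2 was -0.40 with TPM plus 1 and -0.61 to 1.13 without 1 library. For Mbp it was -0.2 to 0.73 and for Mag -0.18 to 0.79 without 1 library. The S100b ratio to Sox10 was -0.16 to 0.08. The 5 ratios under 0.05 became 3 in CPM and 1 to 5 without 1 library. Log2 TPM moved the median of all genes within EAS37 from -0.03 to -0.17 (plus 1) and -0.21 (plus 0.1), against -1.64 and -2.06 for the 8 genes. The causes were not tested. Depth limits Pmp2 and Mag most, with 6 counts of Pmp2 in KI 2.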
